A study of Mus musculus with 36 samples.

Results

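The 6 libraries described here are the control arm of a CRISPR experiment in mouse nephron progenitor cells (NPCs), taken out of 36 RNA-seq libraries in the series. NPCs of genotype Cas9-eGFP, isolated from pooled embryonic kidneys by depleting stromal, endothelial, red blood and epithelial cells with antibody-coated beads, received an sgRNA against GFP together with an mCherry mRNA, and were kept in low CHIR for 48 h. They were then held for 24 h either in 1.25 µM CHIR (low CHIR, n = 3) or in 5 µM CHIR (high CHIR, n = 3), sorted for mCherry and sequenced. Every library therefore carries Cas9, the GFP sgRNA, lipofection and sorting, and the groups differ in the CHIR dose of the last period. The same table holds QKO libraries (low CHIR, n = 2; high CHIR, n = 3), in which the guides targeted the 4 Tcf/Lef genes; a separately normalized table holds 24 h GFP sgRNA controls (n = 2 per dose, a shorter wait after transfection), and another one holds wild-type NPCs without guides (n = 3 per dose). No value for the GFP transgene was analysed here, so the effect of the guide on its own target is unknown.

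NPCs are the mesenchymal progenitors of the nephron. They sit as a cap around each ureteric bud tip, where a transcription factor network that includes Six2 keeps them self-renewing, and Wnt9b from the ureteric bud is needed both for this renewal and for its end, when cells aggregate, express Wnt4 and undergo a mesenchymal-to-epithelial transition to form the renal vesicle. CHIR is a small molecule inhibitor of GSK3, the kinase that marks β-catenin for destruction, and so mimics canonical Wnt signalling. Stabilized β-catenin enters the nucleus and acts through the DNA-binding factors Tcf7, Tcf7l1, Tcf7l2 and Lef1. The comparison of both doses in guide controls measures the response of otherwise unedited NPCs to a step from a renewal-supporting to an inducing dose.

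Values are normalized counts, the read count of a gene divided by 1 scaling factor per library. The libraries held 13089780, 16119987 and 19717536 reads in genes in low CHIR (replicates 1, 2 and 3, the order used throughout) and 20152719, 16092034 and 17094615 in high CHIR. Of 26472 genes in the table, 15912 averaged at least 10 normalized counts over the 6 libraries and were tested. Where 2 sets of values are given for a gene, the low CHIR libraries come first. The first principal component, 60.4% of the variance, separated the doses, and the second, 21.8%, followed the replicate number.

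In high CHIR the mean level of every self-renewal gene was lower, from 4.82-fold for *Eya1* to 29.5-fold for *Cited1*, and that of every differentiation gene was higher, from 32.6-fold for *Lef1* to 405-fold for *Lhx1*. A gene was called when its adjusted p was below 0.05 and its log2 difference at least 1 in size, with limma on log2(normalized count + 1); rose and fell are used of single genes past the adjusted p. All 7 self-renewal genes were called lower, against a background of 5.1% of tested genes called lower, and all 5 differentiation genes were called higher, against 4.88%. The median log2 difference was -4.06 for self-renewal and 6.03 for differentiation, beside 0.03 for all genes of the table. The study itself chose these genes as markers, so their direction is not independent evidence. The other gene lists were chosen with earlier results of these data known, so their counts are not independent evidence either. For those lists, the background of the limma counts is the same shares. In bulk libraries, fewer cells expressing a gene and less of its RNA per cell cannot be told apart.

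*Six2* (chr17:85684277-85688274, GRCm38), the homeodomain factor that holds NPCs undifferentiated, had 3148, 2502 and 1206 normalized counts in low CHIR and 246, 137 and 271 in high CHIR, a difference of -3.34 ± 0.33 (log2 ± SE; adjusted p = 4.15e-05) and a 10.5-fold lower mean. *Cited1*, a transcriptional coregulator of the youngest cap mesenchyme, fell from 5775, 6182 and 4179 to 167, 165 and 215, which is 29.5-fold (-4.87 ± 0.26, adjusted p = 5.29e-07). The groups were far apart for both genes, and *Six2* was the more variable among the low CHIR libraries, with replicate 3 lowest. *Osr1*, a zinc finger factor of the early kidney mesenchyme, had 1222, 1016 and 1636 in low and 104, 52.6 and 77.6 in high CHIR (-4.06 ± 0.30, adjusted p = 6.37e-06). *Eya1*, a phosphatase and coactivator that partners *Six2*, kept the largest remainder of this group, with 4488, 5579 and 6224 in low and 1146, 586 and 1646 in high CHIR (-2.38 ± 0.29, adjusted p = 0.000212). The high CHIR libraries still differed among themselves for *Eya1*, replicate 3 holding more than replicate 2.

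The homeobox gene *Meox2* had 2030.2, 2485 and 2385 in low and 79.9, 70.8 and 191 in high CHIR (-4.47 ± 0.30, adjusted p = 3.07e-06), while its paralogue *Meox1* was scarce in every library, with 31.8, 23.7 and 13.8 in low and 4.94, 5.06 and 3.19 in high CHIR (-2.10 ± 0.39, adjusted p = 0.00296). *Tmem100*, encoding a small transmembrane protein, had 1701, 1825 and 1616 in low and 102, 74.8 and 104 in high CHIR (-4.19 ± 0.33, adjusted p = 8.5e-06). No self-renewal gene had a high CHIR library above a low CHIR library, a separation that 15% of tested genes showed downward and 14.2% upward. *Meox1* was the member that passed the filter through the low CHIR group.

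Among the differentiation genes, *Wnt4* (chr4:137277489-137299726), the ligand needed for renal vesicle formation, had 24.5, 22.7 and 31.1 normalized counts in low and 5906, 2331 and 2663 in high CHIR, a 139-fold higher mean (6.95 ± 0.32, adjusted p = 2.08e-07). *Lhx1* (chr11:84518284-84525535), a LIM homeobox gene of the renal vesicle, went from 6.12, 16.8 and 9.51 to 2762, 7241 and 3135, which is 405-fold (8.50 ± 0.56, adjusted p = 2.54e-06). *Jag1* (chr2:137081456-137116644), a Notch ligand of the forming nephron, had 125, 159 and 286 in low and 7179.9, 18709 and 12083 in high CHIR (6.03 ± 0.40, adjusted p = 2.64e-06). High CHIR replicate 2 was highest for *Lhx1* and *Jag1*, whereas replicate 1 was highest for *Wnt4*. *Lef1* had 119.8, 25.7 and 19.9 in low and 1504, 2743 and 1144 in high CHIR (5.37 ± 0.65, adjusted p = 0.00019), low CHIR replicate 1 standing above its group. *Fgf8*, a ligand needed for survival of nascent nephrons, was near the detection limit in low CHIR, with 0, 1.97 and 0.865 normalized counts or 3 reads in all, and 9.89, 56.6 and 40.4 in high CHIR, a ratio of 33.6 (95% counting interval 11.2 to 166). *Fgf8* passed the filter through the high CHIR group; its log2 difference of 4.06 ± 0.82 (adjusted p = 0.0056) depends on the pseudocount.

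**Figure D1:**
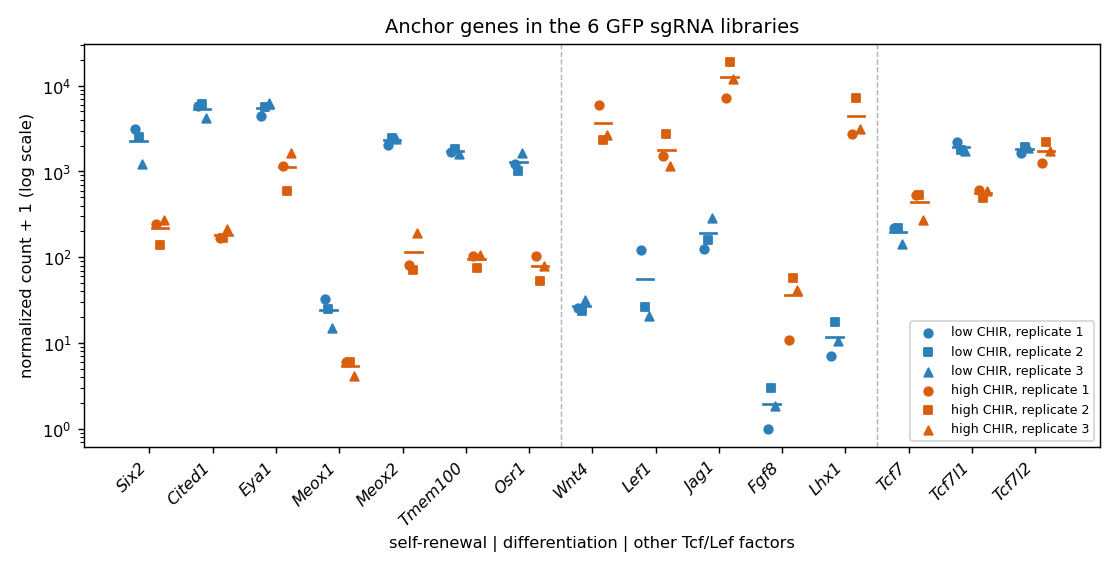
Normalized counts plus 1, on a log axis, of the self-renewal, differentiation and remaining Tcf/Lef genes in each of the 6 libraries (symbols mark replicate numbers; horizontal lines, group means of the plotted values). The groups are apart for every self-renewal and differentiation gene and overlap for *Tcf7l2*.

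The other cap mesenchyme genes split. Of 25, 23 were tested. Called were 6 lower and 5 higher, beside 5.1% and 4.88% of all tested genes, and the median was -0.14. Leaving out 1 library gave 6 to 7 called lower and 3 to 5 higher. *Robo2*, the Slit receptor that limits the outgrowth of ureteric buds, fell from 5007, 7952 and 8839 to 436, 383 and 521 (-3.99 ± 0.29, adjusted p = 5.33e-06). *Gas1*, a membrane protein that supports Fgf signalling in these cells, had 5140.3, 5188 and 2999.8 in low and 829.9, 485 and 583 in high CHIR (-2.80 ± 0.26, adjusted p = 3.01e-05). *Crym* (-3.34), encoding a thyroid hormone-binding protein, *Traf1* (-3.43), *Hoxc10* (-1.53) and *Wt1* (-1.51), a zinc finger factor used again in podocytes, also fell. In the opposite direction, *Pax2*, the paired-box factor that NPCs and early nephrons share, had 389, 216 and 222 in low and 1149, 1287 and 928 in high CHIR (2.06 ± 0.27, adjusted p = 0.000292). *Capn6* (2.39), *Cited2* (1.48) and *Six4* (1.02) rose as well. *Uncx* rose by 2.29 (adjusted p = 0.0156; without high CHIR replicate 2, 0.0776, which left 3 called higher). The members of this list therefore went both ways while the 7 self-renewal genes went down.

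Early nephron genes, those of the pretubular aggregate and renal vesicle, were mostly higher in high CHIR. Of 39 genes, 35 were in the table and 28 were tested, of which 8 passed the filter through the high CHIR group. Called were 19 higher and 5 lower, beside 4.88% and 5.1% of all tested genes, and the median over the 35 was 2.28. The list was chosen with earlier results of these data known, so its direction is not independent evidence. *Emx2* (chr19:59458372-59465357), a homeobox gene needed for nephron formation, had 2.45, 1.97 and 0.865 normalized counts in low and 985, 2489.8 and 851 in high CHIR (8.90 ± 0.61, adjusted p = 3.31e-06), an 818-fold higher mean. *Pax8*, a paired-box factor of the renal vesicle, was already abundant in low CHIR, at 1020, 1573 and 2051, and reached 4183, 6801 and 7114 (1.98 ± 0.35, adjusted p = 0.0024). *Ccnd1*, the G1 cyclin induced in pretubular aggregates, had 189.6, 90.8 and 93.4 in low and 1225, 2219.8 and 2126 in high CHIR (3.93 ± 0.32, adjusted p = 1.1e-05). The 3 genes started from very different states, from a handful of reads for *Emx2* to over 1000 normalized counts for *Pax8*.

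*Mecom*, a zinc finger factor later found in the distal nephron, had 127, 91.8 and 49.3 in low and 1533, 4576 and 2448 in high CHIR (4.94 ± 0.70, adjusted p = 0.00057). *Papss2*, an enzyme that makes the sulphate donor PAPS, had 41.6, 38.5 and 37.2 and 769.8, 3273 and 2375 (5.50 ± 0.67, adjusted p = 0.000195), and *Clec18a*, a secreted lectin, had 14.7, 5.92 and 6.92 and 1245, 765 and 905 (6.65 ± 0.36, adjusted p = 5.29e-07). Replicate 2 was highest in high CHIR for *Mecom* and *Papss2*. *Greb1* (4.78), *Msx1* (4.37), *Ovol1* (4.14), *Pou3f3* (4.11), *Npy* (4.07), *Dach1* (3.41), *Bmp2* (2.95) and *Sox11* (1.85) rose too.

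The 5 early nephron genes called lower were *Foxc2*, *Sox9*, *Tcf21*, *Foxc1* and *Sox12*. *Foxc2*, a forkhead factor used later in podocytes, fell from 127, 80.9 and 44.1 to 11.5, 10.1 and 6.38 (-2.95 ± 0.40, adjusted p = 0.00037). *Tcf21*, a basic helix-loop-helix factor of stroma and podocytes, had 3347, 2845 and 2609 in low and 699, 453 and 937 in high CHIR (-2.13 ± 0.23, adjusted p = 7.63e-05), and *Sox9* also fell (-2.34). Of 16 genes of mature nephron segments, 13 were in the table and 6 were tested; limma called 0 in either direction, with 0 higher and 1 lower at an unadjusted p below 0.05, and edgeR and DESeq2 each called that number, 0 higher and 1 lower.

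**Figure D2:**
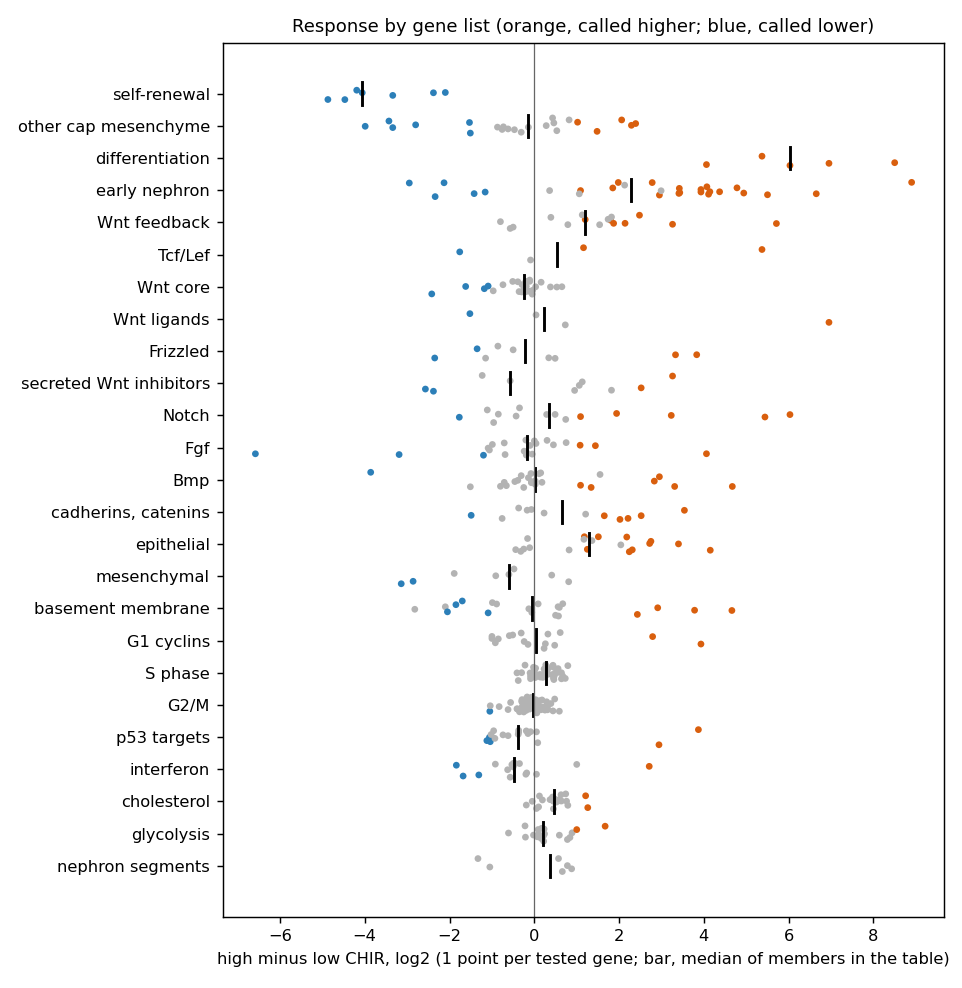
Log2 difference, high minus low CHIR, of each tested gene by list (orange, called higher; blue, called lower; grey, not called), with the median over all members in the table as a bar. Self-renewal genes lie to the left of 0 and differentiation genes to the right, while the cap mesenchyme, Fgf and basement membrane lists spread to both sides.

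Genes that canonical Wnt signalling induces as feedback were higher in high CHIR for a part of the list. Of 22, 21 were in the table and 16 were tested, 4 of them through the high CHIR group; 7 were called higher and 0 lower by limma (1 lower at an unadjusted p below 0.05, and 0 lower with edgeR or DESeq2; 10 and 0 with the replicate number as a block, which called 5.77% of tested genes higher, 6.54% lower and 12.3% in all), with a median of 1.2. *Sp5*, a zinc finger repressor induced by Wnt in many tissues, was nearly silent in low CHIR, at 0, 2.96 and 2.59 normalized counts, and had 94.8, 246 and 86.1 in high CHIR (5.71 ± 0.77, adjusted p = 0.000397). *Tnfrsf19*, a receptor that dampens Wnt responses, went from 163, 86.8 and 158 to 1053, 558 and 669.8 (2.48 ± 0.31, adjusted p = 0.000236). The rise of *Sp5* was shared by all 3 high CHIR libraries, with replicate 2 highest.

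Because Tcf/Lef proteins bind the motif CTTTGAT, the promoter windows of the RefSeq genes (GRCm38.p6; 250 bases before to 50 after the start) were searched for it on both strands. *Sp5* and *Tnfrsf19* were the feedback genes with a match among 12 that had a window, beside 4.29% of all 27025 genes with a window (3.73% of 32851 windows). Of 27 early nephron genes with a window, 3 matched: *Dach1*, *Greb1* and *Mecom*. The windows of *Sp5* and *Tnfrsf19* are shown, 5′ to 3′ on the gene's strand, as the examples from the Wnt feedback list, with the match in capitals.
*Sp5*, chr2:70474673-70474972 (+): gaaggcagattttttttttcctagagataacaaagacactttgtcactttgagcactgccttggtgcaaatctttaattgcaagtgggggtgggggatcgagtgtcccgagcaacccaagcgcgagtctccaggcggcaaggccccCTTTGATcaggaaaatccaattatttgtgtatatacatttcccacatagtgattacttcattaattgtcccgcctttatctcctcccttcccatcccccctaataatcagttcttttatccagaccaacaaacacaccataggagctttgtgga
*Tnfrsf19*, chr14:61037938-61038237 (−): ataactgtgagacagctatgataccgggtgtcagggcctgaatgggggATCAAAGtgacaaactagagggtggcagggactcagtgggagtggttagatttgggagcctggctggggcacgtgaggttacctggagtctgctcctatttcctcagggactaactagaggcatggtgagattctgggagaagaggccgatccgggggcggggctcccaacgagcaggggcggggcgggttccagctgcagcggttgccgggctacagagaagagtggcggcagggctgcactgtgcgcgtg
The *Sp5* match begins at position -104 from the start and reads along the gene; the one of *Tnfrsf19* begins at -202 and lies on the opposite strand, so that it appears as ATCAAAG in the printed strand. Among genes tested, 2.87% had a match, and the share was 3.29% for genes called higher and 3% for genes called lower. None of the 4 differentiation genes with a window matched. A match is a string of letters in a short window and no measure of binding.

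Of the other feedback genes, *Axin2*, the scaffold of the β-catenin destruction complex and a common Wnt reporter, had 83.2, 79 and 56.2 in low and 480.5, 346 and 197 in high CHIR (2.14 ± 0.32, adjusted p = 0.000757). *Notum*, the enzyme that strips the lipid from Wnt ligands, had 1.22, 4.93 and 0.865 and 89.8, 24.3 and 8.51 (3.26 ± 0.74, adjusted p = 0.0106), and *Nkd1*, a Dishevelled antagonist, had 64.8, 49.3 and 39.8 and 372, 143 and 121 (1.87 ± 0.39, adjusted p = 0.00722). For all 3 genes, high CHIR replicate 1 was the highest library, unlike *Sp5*. *Znrf3* (1.20), a ubiquitin ligase that removes Frizzled receptors, rose. *Nkd2*, a relative of *Nkd1*, was called higher less stably (1.80, adjusted p = 0.0457; lost without low CHIR replicates 1 or 2 or high CHIR replicates 1 or 2, adjusted p up to 0.165). *Lgr4* (-0.80, adjusted p = 0.00898), an R-spondin receptor, was the feedback member that fell.

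Of the 4 Tcf/Lef factors, *Lef1* and *Tcf7* were called higher and *Tcf7l1* lower. *Tcf7l1*, which acts largely as a repressor, had 2225, 1774 and 1736 in low and 612, 486 and 591 in high CHIR (-1.76 ± 0.19, adjusted p = 8.29e-05). *Tcf7* had 220.1, 220.1 and 141 and 534, 535 and 268 (1.16 ± 0.31, adjusted p = 0.0265; lost without low CHIR replicates 2 or 3 or high CHIR replicates 1 or 2, adjusted p up to 0.11). *Tcf7l2* had 1622, 1949 and 1872 and 1263, 2233 and 1750, and its groups overlapped (-0.09 ± 0.22, adjusted p = 0.841).

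Of 28 core components of the Wnt pathway, 27 were in the table and 25 tested, with 0 called higher and 4 lower by limma (2 lower without low CHIR replicate 2), beside 5.1% of all tested genes called lower, and a median of -0.25; 1 was higher at an unadjusted p below 0.05, and edgeR and DESeq2 also called 0 higher. *Rspo1*, a secreted Wnt enhancer of the early kidney, fell from 204, 173 and 67.4 to 26.4, 19.2 and 27.6 (-2.42 ± 0.39, adjusted p = 0.0014), and *Bcl9l*, a β-catenin coactivator, fell as well (-1.62). The coreceptor gene *Lrp6* fell by 1.09 (adjusted p = 0.0178; lost without low CHIR replicates 1 or 2 or high CHIR replicate 3, adjusted p up to 0.0815) and the corepressor gene *Tle2* fell by 1.18 (adjusted p = 0.00953; without low CHIR replicate 2, 0.0504). *Ctnnb1*, encoding β-catenin, had 5159, 4298 and 2742 and 3550.4, 2985 and 2525 (-0.39 ± 0.21, adjusted p = 0.25; -0.65 and 0.0171 without low CHIR replicate 3).

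Among Frizzled receptors, 9 of 10 were tested, 1 of them through the high CHIR group. *Fzd6* had 25.7, 30.6 and 19.9 in low and 492, 468 and 217 in high CHIR (3.83 ± 0.32, adjusted p = 1.37e-05) and *Fzd10* rose as well (3.33), while *Fzd4* fell from 1915, 1707 and 1375 to 269, 416 and 298 (-2.35 ± 0.18, adjusted p = 6.73e-06) and *Fzd2* fell too (-1.35). Thus 2 receptor genes were called higher and 2 lower, beside 4.88% and 5.1% of all tested genes. With the replicate number as a block, 2 were called higher and 3 lower, beside 5.77% and 6.54%. Of 19 Wnt ligand genes only 4 were tested. *Wnt5a*, a noncanonical ligand, fell (-1.52, adjusted p = 0.0301; lost without low CHIR replicates 1 or 2 or high CHIR replicates 2 or 3, adjusted p up to 0.109). *Wnt2*, below the filter, had 30.6, 23.7 and 2.59 normalized counts in low CHIR and 0 in each high CHIR library, at least 18.23-fold lower against a floor of 3 reads over the group. Of 13 secreted inhibitors, 10 were tested, 3 of them through the high CHIR group, with 2 called higher (*Notum* and *Sfrp2*) and 2 lower (*Dkk3* and *Frzb*). *Dkk3* fell by 2.38. *Sfrp2* rose by 2.52 (adjusted p = 0.0114; without low CHIR replicate 1, 0.051), and *Frzb* fell by 2.57 (adjusted p = 0.0289; lost without low CHIR replicates 1 or 2 or high CHIR replicates 2 or 3, adjusted p up to 0.12).

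Several Notch genes rose with *Jag1*. Of 19 genes, 14 were tested; 5 were called higher and 1 lower, with a median of 0.35. *Heyl*, a transcriptional target of Notch, had 29.4, 7.9 and 25.1 in low and 1134, 541 and 941 in high CHIR (5.44 ± 0.43, adjusted p = 8.5e-06), and *Hey1*, of the same family, had 223, 189 and 170.3 and 1065, 532 and 722 (1.94 ± 0.22, adjusted p = 0.000142). The ligand gene *Dll1* had 6.12, 15.8 and 19 and 48.6, 205 and 190.3 (3.23 ± 0.65, adjusted p = 0.00537). *Hes1*, the Notch effector gene called lower, went the other way, from 914, 986 and 508 to 194, 257 and 229.7 (-1.77 ± 0.23, adjusted p = 0.000292), and the receptor gene *Notch2* fell by 0.85, short of the log2 cut-off; without low CHIR replicate 3 the list had 3 called lower, and without high CHIR replicate 1 it had 2. *Notch1* rose by 1.09 (adjusted p = 0.0204; lost without low CHIR replicate 2 or high CHIR replicates 1 or 2, adjusted p up to 0.0814).

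Fgf ligands and targets changed in both directions, 3 called higher and 3 lower of 23 tested, 2 of them tested through the high CHIR group, with a median of -0.18; DESeq2 called 3 higher and 5 lower. *Fgf1*, a ligand made by NPCs, fell from 2347, 3492 and 2705 to 21.4, 61.7 and 17 (-6.58 ± 0.36, adjusted p = 6.51e-07), more than any other member. *Etv1*, an Ets factor induced by Fgf signalling, had 2038, 2329 and 1937 in low and 195, 166 and 366 in high CHIR (-3.19 ± 0.25, adjusted p = 7.89e-06). *Spry4*, a feedback inhibitor of the same pathway, fell by 1.20. Without low CHIR replicate 1 or high CHIR replicates 1 or 3, 1 Fgf gene was called higher, and without low CHIR replicate 3, 6 were called lower. Together with the rise of *Fgf8*, the ligand genes went opposite ways.

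Of 28 Bmp pathway genes, 25 were tested, 6 were called higher and 1 lower (2 lower without high CHIR replicate 1), and the median was 0.02. *Bmp7*, a ligand that promotes both survival and differentiation of NPCs, had 25.7, 46.4 and 56.2 in low and 684, 1452 and 1209 in high CHIR (4.67 ± 0.74, adjusted p = 0.00115). *Bmp2*, above, and the receptor genes *Bmpr1b* (2.83) and *Acvr2b* (1.34) rose, as did the Bmp-responsive *Id4* (3.31). *Bmper*, a secreted Bmp-binding protein, had 7396, 3799.7 and 4157 and 1073, 171 and 204 (-3.86 ± 0.72, adjusted p = 0.00339). *Bmp4* stood near the threshold (1.09, adjusted p = 0.0489, lost without low CHIR replicates 2 or 3 or high CHIR replicates 1 or 3, adjusted p up to 0.155).

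Adhesion and polarity genes rose in part. Of 14 cadherin and catenin genes, 12 were tested, 5 called higher and 1 lower, with a median of 0.65. *Cdh6*, the cadherin of the renal vesicle, had 375, 288 and 388 in low and 1893, 1738 and 2408 in high CHIR (2.52 ± 0.20, adjusted p = 8.7e-06). *Cdh3* had 257, 275 and 197 and 2524, 3927 and 2224 (3.54 ± 0.34, adjusted p = 3.42e-05), and *Cdh4* rose by 1.65. *Cdh11*, a cadherin of mesenchyme, had 9975, 8109 and 4639.8 and 3760.5, 2046 and 2206 (-1.49 ± 0.28, adjusted p = 0.00317). The groups did not overlap for *Cdh3*, *Cdh6* or *Cdh11*, a separation that 14.2% of tested genes showed upward and 15% downward. Among the 14 genes of the list, 5 separated upward and 2 downward.

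Among 30 epithelial junction and polarity genes, 28 were in the table and 19 tested, 4 of them through the high CHIR group; 10 were called higher and 0 lower by limma (0 lower also at an unadjusted p below 0.05 and with edgeR or DESeq2), and the median was 1.29. *Marveld2*, a tight junction protein, had 8.56, 3.95 and 11.2 in low and 89, 232 and 155 in high CHIR (4.15 ± 0.54, adjusted p = 0.000292). *Cldn6* (3.40) and *Cldn7* (2.31), both claudins, *Krt18* (2.75), a keratin of simple epithelia, and *Prkcz* (2.72), an atypical protein kinase C, also rose. *Cdh1*, the E-cadherin gene, had 12.2, 8.88 and 9.51 in low and 11.5, 34.4 and 37.2 in high CHIR (1.21 ± 0.47, adjusted p = 0.109; 1.73 and 0.0182 without high CHIR replicate 1). Of 11 mesenchymal genes, 8 were tested and 2 were called lower: *Snai2*, a repressor of epithelial genes, fell from 3720.4, 2919 and 1985 to 476, 245 and 270.1 (-3.14 ± 0.36, adjusted p = 0.000125), and *Zeb1* fell by 2.86. *Vim* fell by 0.91, short of the cut-off. Without high CHIR replicate 1, 4 mesenchymal genes were called lower.

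Basement membrane genes went both ways, 4 called higher and 4 lower of 20 tested, with a median of -0.06. *Lama4*, a laminin α chain, had 102, 80.9 and 128 in low and 2329, 2430.2 and 3083 in high CHIR (4.66 ± 0.27, adjusted p = 9.94e-07). *Frem2* (2.91) and *Lamb1* (2.43) rose, while *Nid2*, a nidogen, had 5927, 5881 and 5306 and 1387, 827 and 2264 (-2.05 ± 0.27, adjusted p = 0.000317) and *Col4a6* (-1.85), *Frem1* (-1.70) and *Lamb2* (-1.09) fell. The laminin chains thus went both ways.

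The G1 cyclin list held 18 genes, of which 16 were tested, and its median was 0.03. Called were 2 higher and 0 lower by limma, beside 4.88% and 5.1% of all tested genes (2 lower without high CHIR replicate 3). The D-type cyclin genes *Ccnd1* and *Ccnd2* rose, while *Ccnd3* had overlapping groups (-0.24 ± 0.24, adjusted p = 0.563). *Ccnd2* had 4864, 3054 and 1616 in low and 29857, 14343 and 18491 in high CHIR (2.79 ± 0.38, adjusted p = 0.00039). Of 43 S-phase genes, 7 rose past the adjusted p and 0 were called by limma, edgeR or DESeq2 (15 higher and 2 lower at an unadjusted p below 0.05), beside 7.46% of tested genes past the adjusted p upward, 8.23% downward and 15.7% in all, and the median was 0.27; *Uhrf1* (0.73) and *Cdca7* (0.67) are examples. Of 54 G2/M genes, 2 fell past the adjusted p and 1 of them, *Pimreg*, was called; *Pimreg* was -1.05 (adjusted p = 0.0109; without high CHIR replicate 2, 0.0533) and *Mki67* -0.83 (adjusted p = 0.0375; lost without low CHIR replicates 1 or 2 or high CHIR replicates 2 or 3, adjusted p up to 0.132). The median of the G2/M genes was -0.04.

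Of 19 glycolysis genes, 2 were called higher, *Pkm* (1.00), the pyruvate kinase gene, and *Slc16a3*, a lactate exporter (1.67, adjusted p = 0.0383; lost without low CHIR replicates 1, 2 or 3 or high CHIR replicates 1 or 2, adjusted p up to 0.123); 6 rose and 1 fell past the adjusted p, and the median was 0.21. Over all tested genes, 4.88% were called higher and 5.1% lower, the background for the glycolysis, cholesterol and p53 counts here. Past the adjusted p alone, 7.46% were higher and 8.23% lower. The number of glycolysis genes called higher was 0 without low CHIR replicates 1 or 2. It was 1 without high CHIR replicates 1 or 3 or with edgeR, and 3 without low CHIR replicate 3. Of 22 cholesterol synthesis genes, *Fdps* (1.26) and *Sc5d* (1.21) were called higher and 0 lower by limma (0 lower also at an unadjusted p below 0.05 and with edgeR or DESeq2), with a median of 0.47; without low CHIR replicate 1, 1 was called higher. Of 16 tested interferon-response genes, 1 was called higher and 3 lower, beside 4.88% and 5.1% of all tested genes, with a median of -0.47; *Ifit2* fell by 1.31, and 1 was called lower without low CHIR replicates 1 or 2 or high CHIR replicate 3. The number called higher in this list was 0 with edgeR and without low CHIR replicates 2 or 3 or high CHIR replicates 1 or 2 (limma, 1 at an unadjusted p below 0.05 with all libraries). Of 18 p53 targets, 2 were called higher, *Pmaip1* (3.87) and *Perp* (2.94), both linked to cell death, and 3 lower, *Sesn2* (-1.06), *Trp53inp1* (-1.04) and *Ccng1* (-1.12, adjusted p = 0.0266; lost without high CHIR replicates 1 or 2, adjusted p up to 0.103). Leaving out low CHIR replicate 3 or high CHIR replicate 2 left 1 p53 target called lower, and DESeq2 called 5. The p53 targets summed to 15176 and 15054 normalized counts in low CHIR replicates 1 and 2 and to 29261 in replicate 3.

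Over all genes, 776 were called higher and 811 lower, 9.97% of those tested. The 15 largest increases among genes averaging at least 50 normalized counts held the adjacent pairs *Krt23* with *Krt39* and *Lhx1* with *Lhx1os*. *Krt23*, a keratin gene, was at 0 in each low CHIR library and had 435, 1023 and 312 in high CHIR, at least 580.8-fold higher. *Krt39*, 21 kb away, was also at 0 in low CHIR and had 97.2, 167 and 91.4, at least 116.9-fold. *Lhx1os* had 2 reads in all of low CHIR and 347, 854 and 561 in high CHIR, a ratio of 852 (95% counting interval 236 to 7043). *Lhx1os* starts 124 bases from *Lhx1* on the other strand, and *Emx2os* (7.54) overlaps *Emx2* by 264 bases; whether counting used the strand is not given in the sources used here, so reads of such partners may not be separable and these antisense values are uncertain. *Syk* (6.95), a tyrosine kinase, *Sv2b* (7.86), a vesicle protein, *Cthrc1* (6.95), a secreted matrix protein, *Grb7* (6.87), an adaptor, and *Car2* (6.73), a carbonic anhydrase, were also among the 15.

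Among the 15 largest decreases, *Ch25h*, the enzyme that makes 25-hydroxycholesterol, fell from 971, 1148 and 930.2 to 1.65, 1.01 and 1.06 (-8.83 ± 0.44, adjusted p = 4.64e-07). *Il33*, a nuclear cytokine, had 14469, 16829 and 9579.5 in low and 88.2, 46.5 and 61.7 in high CHIR (-7.69 ± 0.32, adjusted p = 1.26e-07), a 208-fold lower mean. *Sst*, the somatostatin gene, had 235, 1790.3 and 747 and 4.94, 14.2 and 12.8 (-5.99 ± 0.99, adjusted p = 0.00155). The low CHIR level of *Sst* varied more among replicates than those of *Ch25h* and *Il33*. *Col9a1* (-6.31), a cartilage collagen, *Ntsr1* (-5.85), the neurotensin receptor, *Rgs2* (-4.83) and *Rgs4* (-4.82), both regulators of G protein signalling, also fell. *Matn1*, a cartilage matrix gene, had 78.3, 277 and 312 in low CHIR and 2 reads in all of high CHIR, a low-to-high ratio of 371 (95% counting interval 102 to 3072).

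**Figure D3:**
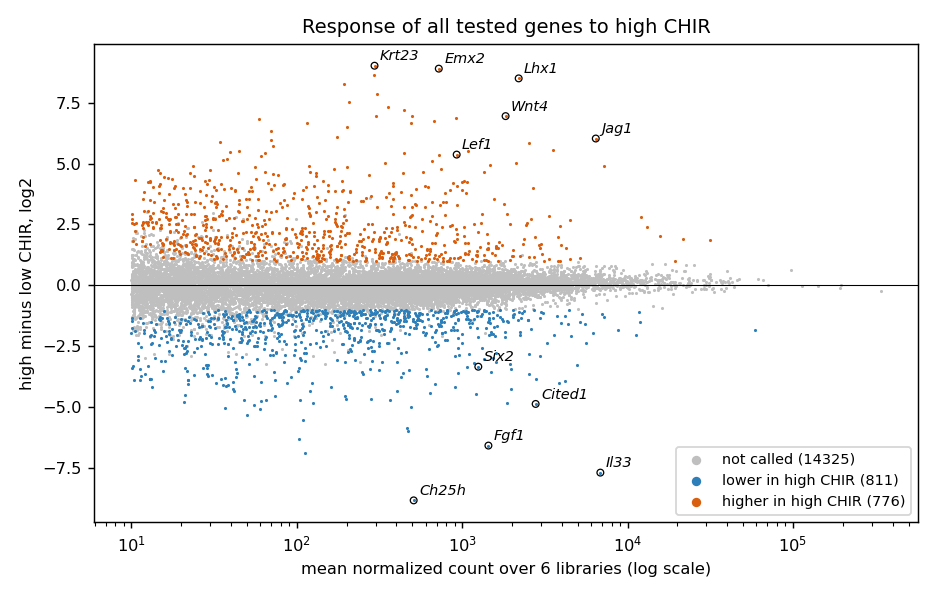
Log2 difference, high minus low CHIR, of the 15912 tested genes against their mean normalized count over the 6 libraries (log axis; orange, 776 called higher; blue, 811 called lower; grey, not called). *Emx2*, *Lhx1* and *Krt23* lie at the top edge and *Ch25h* and *Il33* at the bottom edge of the cloud.

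Markers of other cell types moved with dose or with replicate number, and their part in the results above was not tested. The 14 stromal markers summed to 13486, 6363 and 4999 normalized counts in low CHIR and 6265, 2172 and 1764 in high CHIR, so that replicate 1 was highest at both doses; 2 of 12 tested were called lower, 8 with the replicate block, and 1 without low CHIR replicates 2 or 3 or high CHIR replicates 2 or 3. The defining stromal gene *Foxd1* had 11, 3.95 and 2.59 in low and 11.5, 7.08 and 2.13 in high CHIR. The matrix gene *Col1a1* had 4185, 955 and 128 in low and 1366, 220.5 and 85.1 in high CHIR (-1.44, adjusted p = 0.568; 0.00145 with the block). The 12 endothelial markers summed to 1172 to 1652 in low and 394 to 486 in high CHIR. *Plvap* made up most of the endothelial sum in low CHIR (1333, 1188 and 898, against 61.8, 116 and 80.8), while the defining genes *Pecam1* (12.2, 18.8 and 19, then 16.5, 32.4 and 10.6) and *Cdh5* (3.67, 0 and 0, then 3.3, 1.01 and 0) were low at both doses. The endothelial receptor gene *Tek* nonetheless went from 2.45, 0 and 1.73 to 72.5, 172 and 172 (5.95 ± 0.64, adjusted p = 8.15e-05).

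Ureteric markers summed to 472 to 553 in low and 996 to 1701 in high CHIR, with *Hoxb7* (1.18) and *Gata3* (3.93) called higher, 2 of 5 tested. The defining ureteric tip genes *Ret* (1.22, 2.96 and 1.73, then 5.77, 6.07 and 5.32) and *Wnt11* (2.45, 0.987 and 0.865, then 11.5, 4.05 and 0) were low in all libraries. Blood cell markers summed to 80.8 to 169 in 5 libraries and to 985 in high CHIR replicate 1, where the macrophage gene *Adgre1* had 282 normalized counts against 0 in each of the other 5 libraries. Called counts without that library were 714 higher and 883 lower.

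**Figure D4:**
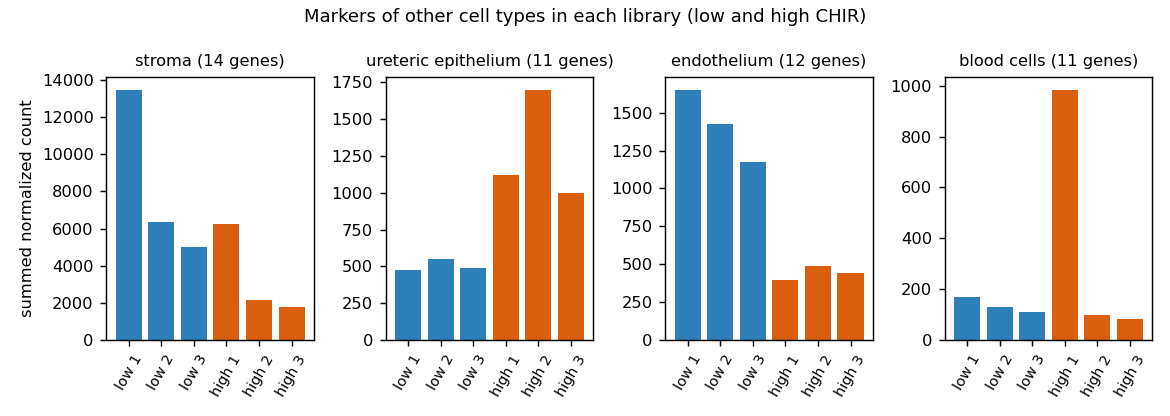
Summed normalized counts of stromal, ureteric, endothelial and blood cell markers in each library, as bars from 0 (blue, low CHIR; orange, high CHIR). The stromal sum is highest in replicate 1 at both doses, and the blood cell sum stands out in high CHIR replicate 1 at 985.

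The QKO libraries were treated with both doses beside the controls, so the difference of the 2 responses was tested in the same fit. In the QKO, 196 genes were called higher and 126 lower, 1.23%, 0.792% and together 2.02% of those tested. The response differed from the control response for 20 genes, 0.126% of those tested, of which the control response was the lower in 17 (0.107%) and the higher in 3 (0.0189%). With the replicate number as a block it differed for 132 genes, 0.83% (38 higher, 0.239%, and 94 lower, 0.591%). The 2 genes whose difference kept its adjusted p without any 1 of the 11 libraries, named after their values were seen, were *Bcl2* and *Sncaip*. *Bcl2*, an inhibitor of cell death, had 4764, 5341 and 3934 normalized counts in low and 326, 427 and 379.6 in high CHIR in the controls, and 3900 and 4385 in low and 1906, 2022 and 2022 in high CHIR in the QKO. Its log2 difference was -3.63 ± 0.14 in the controls and -1.06 ± 0.16 in the QKO (difference of the responses -2.57 ± 0.21, adjusted p = 0.000425). *Sncaip*, encoding the synuclein partner synphilin, differed by -2.81 ± 0.23 (adjusted p = 0.000425). *Il33* fell less in the QKO, from 7859 and 6510.1 to 1120.4, 769 and 450.3. Its difference was -4.40 ± 0.48 (adjusted p = 0.00604, and 0.000502 with the replicate block). That difference lost its adjusted p without QKO low CHIR replicate 3, which left 1 library in the group.

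The self-renewal genes *Meox2* (-2.86 ± 0.45, adjusted p = 0.0411) and *Tmem100* (-3.06 ± 0.49, adjusted p = 0.0437), as well as *Fgf1* (-3.79 ± 0.54), *Ch25h* (-4.19 ± 0.66) and *Fzd4* (-1.87 ± 0.27), also fell further in the controls. In the QKO, *Meox2* had 1621 and 2141 normalized counts in low and 606, 541 and 692 in high CHIR, and *Tmem100* had 1714 and 1663 in low and 1553, 571 and 516 in high CHIR. The 3 genes whose response was higher in the controls, named after their values were seen, were *Sorbs2* (2.16 ± 0.30), *Lhfpl2* (2.87 ± 0.42) and *Hdac6* (1.70 ± 0.28). Each of these 8 differences lost its adjusted p when 1 of several libraries was left out, control low CHIR replicate 2 among them. Leaving out either QKO low CHIR library left 1 in that group. With the replicate number as a block, the limma adjusted p was 0.00456 for *Meox2*, 0.00921 for *Tmem100*, 0.00419 for *Fgf1* and 0.0109 for *Ch25h*. It was 0.00863 for both *Fzd4* and *Sorbs2*, 0.00269 for *Lhfpl2* and 0.0112 for *Hdac6*.

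Without the replicate block, the difference was not past the threshold for *Six2* (-2.34 ± 0.49, adjusted p = 0.133), *Cited1* (-1.82 ± 0.38, 0.134), *Wnt4* (2.19 ± 0.48, 0.155) or *Lef1* (2.25 ± 0.97, 0.952). This does not show that they respond alike. With the block, 132 genes differed in place of 20, and the block values of the genes in this paragraph are not given here. *Lef1* is itself a target of the QKO guides, so its QKO values come from a targeted gene. *Jag1* had 4.83 ± 0.45 in the QKO and *Lhx1* 7.74 ± 0.62, with differences of 1.20 ± 0.60 and 0.76 ± 0.84 (adjusted p = 1 and 1). *Crym*, called lower in the controls, was 0.10 ± 0.63 in the QKO, and this difference was not past the threshold either (-3.44 ± 0.84, adjusted p = 0.227). Only 2 QKO libraries were in low CHIR, which limits the precision of these differences.

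The other tables were normalized on their own, so their values stand beside those above without a test. The labels 24 h and 48 h name the wait in low CHIR after transfection, and the final dose was given for 24 h in both. In the 24 h controls 5.74% of genes were called, 2.36% higher and 3.37% lower. *Six2* had 1731 and 2373 normalized counts in low and 1097 and 1336 in high CHIR there (-0.74 ± 0.34, adjusted p = 0.233), beside -3.34 at 48 h, whereas *Cited1* was -6.98 ± 0.45; 5 of the 7 self-renewal genes were called lower at 24 h. *Lhx1* was 2.06 ± 0.44 beside 8.50 and *Emx2* 3.47 ± 0.91 beside 8.90, while *Wnt4* was 9.01 ± 0.44 beside 6.95. *Pax8* (0.16 ± 0.33) and *Mecom* (0.16 ± 0.55) lay within 1 SE of 0 at 24 h. *Ccnd1* (0.51 ± 0.25) and *Papss2* (0.68 ± 0.43) were above 0 by more than 1 SE, though less than at 48 h. *Papss2* had 249 and 203 normalized counts in low and 570 and 231 in high CHIR there. Of 14948 genes tested in both, 687 were called higher at 48 h and 383 at 24 h, with 275 in common (40% and 71.8% of each), and 787 and 525 were called lower, with 332 in common (42.2% and 63.2%). The feedback list had 10 called higher and 1 lower of 15 tested at 24 h, beside 7 and 0 of 16 at 48 h. With the replicate block, 10 were called higher at 48 h, so the gap between the counts depends on the fit.

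In wild-type NPCs, high CHIR replicate 3 stood apart from replicates 1 and 2: *Lhx1* had 5949, 6706 and 104 and *Emx2* 3427, 3939 and 91.6 normalized counts in the 3 high CHIR libraries. In wild type 7.58% of genes were called, 4.13% higher and 3.46% lower. *Six2* was -5.40 ± 0.15 with all libraries and -5.37 ± 0.15 without that one, and *Osr1* -9.74 ± 0.29 and -9.74 ± 0.31. All 7 self-renewal genes were called lower in wild type, with and without that library. *Lhx1* was 1.65 ± 1.29 (adjusted p = 0.484) with it and 3.62 ± 0.44 (adjusted p = 0.00062) without, and *Pax8* -0.24 ± 1.35 and 1.87 ± 0.31. Of 15141 genes tested in both tables, 744 were called higher in the guide controls and 608 in wild type, with 334 in common (44.9% and 54.9%; 428 without wild-type high CHIR replicate 3, 57.5% and 57.5%), and 772 and 567 were called lower, with 337 in common (43.7% and 59.4%; 397 without it, 51.4% and 60.2%). *Sst*, *Sfrp2* and *Dll1* had opposite signs in wild type (3.99 ± 0.75, -1.62 ± 0.37 and -1.45 ± 0.36; 3.25 ± 0.68, -1.33 ± 0.37 and -1.35 ± 0.41 without that library), as did *Cdh6* (-0.85 ± 0.41, adjusted p = 0.24). In the 24 h controls *Sst* (-4.94 ± 0.65), *Sfrp2* (1.90 ± 0.37) and *Cdh6* (2.35 ± 0.44) had the sign seen at 48 h, whereas *Dll1* (-1.04 ± 0.64, adjusted p = 0.387) had that of wild type. Wild-type low CHIR libraries had few *Sst* reads, with 6.57, 6.65 and 7.19 normalized counts.

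**Figure D5:**
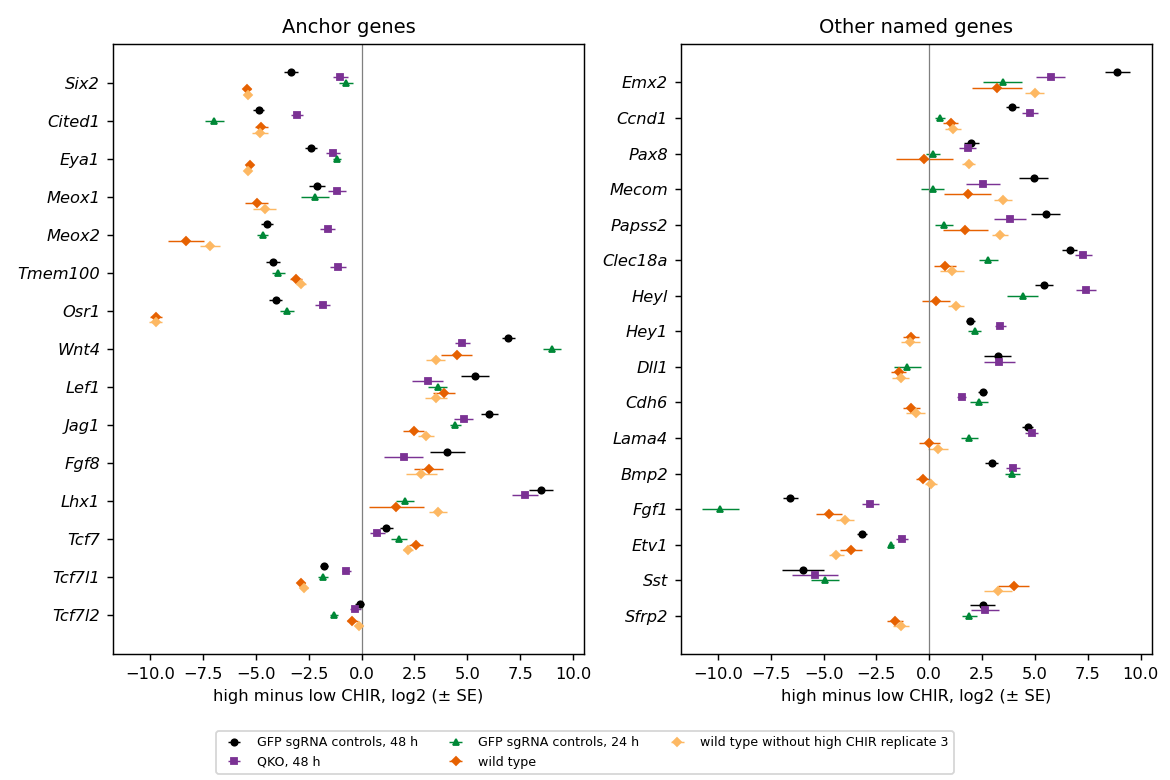
Log2 difference, high minus low CHIR (± SE), of the anchor genes (left) and other named genes (right) in the 48 h GFP sgRNA controls, the QKO, the 24 h GFP sgRNA controls and wild-type NPCs, the last with and without high CHIR replicate 3. Self-renewal genes lie left of 0 in each, and *Sst* and *Sfrp2* lie on opposite sides of 0 in the 48 h controls and in wild type. The 24 h and wild-type tables were normalized separately. The QKO guides targeted the Tcf/Lef genes among the anchors.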

How the data were processed

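RNA-seq libraries of cDNA amplified from total RNA of sorted cells (paired-end reads of 150 bases) were aligned by the authors with STAR to the mouse and human genomes combined (GRCm38 and GRCh38, Ensembl release 76), and uniquely aligned, unambiguous reads were counted with featureCounts. The deposited values are a signal: gene counts divided by 1 DESeq2 size factor per library. All values came out as whole reads within 0.01, so the reads were recovered for edgeR and DESeq2 fits. The members and gene lists were chosen with earlier results of these data known.

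Genes averaging at least 10 normalized counts over the 6 libraries (15912) were fitted with limma 3.58.1 (R 4.3.3, trend) on log2(normalized count + 1), over all 11 libraries of the table, with the CHIR difference in the controls, in the QKO, and the difference of both as contrasts and Benjamini-Hochberg adjustment over all genes; called means adjusted p below 0.05 and a log2 difference of at least 1. Differences understate the change of low genes. Named genes came from lists, and from the 15 largest increases and decreases among called genes with a mean of at least 50 and groups that did not overlap. S-phase and G2/M lists came from Seurat 5.3.0. The labels do not say what the replicates share, so p-values measure only the spread between these libraries, which may be technical. Replicate numbers paired the libraries: headers of the authors' comparison tables carry 3 dates, 1 per number, whose meaning is not stated, and deviations of same-numbered libraries correlated at 0.514, 0.343 and 0.626. Replicate libraries differed by more than sampling noise. The authors' 8 comparison tables (fold changes and p-values) and 50 further columns were not used. Counting intervals cover counting error only. Alternatives were edgeR 4.0.16, DESeq2 1.42.0, other filters, pseudocounts and cut-offs, a replicate block, and leaving out each library. The fits were tested on simulated counts without a replicate effect. For the CHIR difference in the controls, limma recovered 77% of log2 changes of 1.5, with 2.75% of calls false (DESeq2, 88% and 9.18%). For the difference of the responses it recovered 44%, with 6.04% of calls false (DESeq2, 64% and 16%).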

Additional observations from a re-analysis of the deposited data

Results flagged for a closer look

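The response to high CHIR differed between the GFP sgRNA controls and the QKO by a test of the difference itself (limma, adjusted over all genes), lower in the controls for 17 genes and higher for 3. Among the named genes these were *Il33* (-4.40 ± 0.48, log2 difference of the responses ± SE), *Ch25h* (-4.19 ± 0.66), *Fgf1* (-3.79 ± 0.54), *Tmem100* (-3.06 ± 0.49), *Meox2* (-2.86 ± 0.45), *Sncaip* (-2.81 ± 0.23), *Bcl2* (-2.57 ± 0.21) and *Fzd4* (-1.87 ± 0.27), whose fall was larger in the controls. *Lhfpl2* (2.87 ± 0.42), *Sorbs2* (2.16 ± 0.30) and *Hdac6* (1.70 ± 0.28) were higher in the controls. The cause of these differences was not tested.

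*Sst*, *Sfrp2* and *Dll1* moved in opposite directions in the 48 h guide controls and in wild-type NPCs, and this difference was not tested because the tables were normalized separately. *Sst* was -5.99 in the controls and 3.99 ± 0.75 in wild type, *Sfrp2* was 2.52 and -1.62 ± 0.37, and *Dll1* was 3.23 and -1.45 ± 0.36 (adjusted p = 0.0299, and 0.0647 without wild-type high CHIR replicate 3). The starting levels were unlike: in low CHIR, *Sst* had 6.57, 6.65 and 7.19 normalized counts in wild type and a mean of 924 in the controls. *Dll1* had 377, 461 and 206 in wild-type low CHIR and was scarce in low CHIR in the controls. In the 24 h guide controls *Dll1* was -1.04 ± 0.64 (adjusted p = 0.387), on the same side of 0 as in wild type.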

How the results depend on the processing

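The count of genes called in the GFP sgRNA controls was within 1.5 times of 1587 for both pseudocounts, every filter (except that 514 were called higher, in place of 776, at a mean of at least 50), TMM rescaling, edgeR, DESeq2 and the replicate block (1958), and moved with the log2 cut-off, to 2390 at 0.5 (1262 lower) and to 2497 without one (1187 higher and 1310 lower). Leaving out 1 of the 6 libraries gave 577 to 826 called higher and 596 to 1074 called lower.

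The count of genes whose response differed from the QKO was 20, and was 142 with DESeq2 (47 higher and 95 lower), 132 with the replicate block (38 and 94) and 136 with edgeR and the block (38 and 98), the last an alternative chosen after seeing the data, as were the libraries left out in the other tables. With edgeR the difference of *Tmem100* had an adjusted p of 0.0522. Leaving out 1 library gave 4 to 50 such genes (0 to 9 higher and 3 to 41 lower). In the 24 h controls leaving out 1 library gave 501 to 643 called (211 to 282 higher and 290 to 414 lower) in place of 949, the lone library of a group being taken to vary like the others; in wild type it gave 868 to 1579 (463 to 885 higher and 405 to 694 lower) in place of 1299. The cause of these shifts was not tested.

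Of the named genes past the adjusted p, those lost on leaving out 1 library are given beside their values. *Bmp4* was also lost with edgeR (adjusted p = 0.0503), without a filter (0.0516) and with only the 6 libraries in the fit (0.0701), and the last also lost *Ccng1*, *Lrp6*, *Mki67*, *Nkd2*, *Notch1* and *Wnt5a*. 3 genes that did not pass turned sign when a library was left out, *Pecam1* (0.13, range -0.28 to 0.48, with -0.07 without low CHIR replicate 1), *Tcf7l2* (-0.09, range -0.28 to 0.13) and *Ccnd3* (-0.24, range -0.37 to 0.01). Apart from the counts above and *Col1a1*, the replicate block in the fit over 11 libraries changed no call of a named gene. *Ctnnb1* passed the adjusted p with only the 6 libraries and the replicate block (0.00749).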
